A study of Mus musculus with 6 samples.

Results

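The phagocyte NADPH oxidase is represented here by 5 genes, Cybb, Cyba, Ncf1, Ncf4 and Rac2, of the 21720 gene symbols in the deposited table. They were taken because their products are parts of this enzyme. RNA was sequenced from subcutaneous tumours of H22, a mouse hepatocellular carcinoma line, in BALB/c mice aged 6 to 8 weeks. In both groups daily gavage of 0.2 mL began once the tumour measured about 50 mm3 and lasted 21 days. The control group received the vehicle alone, 0.5% carboxymethyl cellulose sodium, and the luteolin group received 200 mg/kg luteolin, a plant flavonoid. Each group held 3 libraries, numbered as replicates 1 to 3, and values of 3 libraries are given in that order. The labels do not state whether each library was 1 mouse, so p values measure the spread between these libraries. The host and the tumour line are both mouse, so host and tumour transcripts were counted together.

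The phagocyte oxidase passes electrons from NADPH across a membrane to oxygen and so makes superoxide, from which hydrogen peroxide and other oxidants form. Its membrane core pairs gp91phox with p22phox, and at rest cytosolic subunits, among them p47phox and p40phox, wait together with a Rac GTPase. Phosphorylation of p47phox and loading of Rac with GTP bring these parts to the membrane core. The enzyme is best known in neutrophils, where its loss causes chronic granulomatous disease, and it is also used by macrophages, monocytes and dendritic cells, including those found in tumours.

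The library totals ran from 61081637 to 80442954 counts, and the lowest count of any of the 5 genes in any library was 902. Values are CPM, counts scaled to the size of the library, here to totals normalized by trimmed mean of M values (TMM). The low values of the table fell mostly on multiples of 4 or 1 above, so that 1 unit need not be 1 read pair. Some libraries stood apart. The summed level of 10 keratinocyte genes was 386, 8644 and 19.7 CPM in the luteolin libraries, against 13.7 to 17.8 CPM in the control libraries. Krt14, a basal keratin of skin, had 0 counts in all 3 control libraries. Base composition also differed between libraries. Across 14635 genes, the level relative to the mean of the 6 libraries correlated with GC content at Spearman values of 0.42, -0.17 and -0.53 in the control libraries. The luteolin libraries had values of -0.17, 0.44 and -0.36. Results are therefore also given without luteolin replicate 2 and with GC content and length fitted. Of the 8 hepatocyte and hepatoma markers, the transferrin gene Trf was the most abundant at 321 ± 26.3 CPM (SD, n = 3) in the control group and 177 ± 92.2 CPM (SD, n = 3) in the luteolin group. Among the 7 markers tested, 5 had log2 fold changes above 0, and the median was 1.57. Trf and Afp were lower in every luteolin library. The liver transcription factor gene Hnf4a was at or near 0 in every library.

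The question was how the parts of the enzyme differed between luteolin-treated and control tumours. For each of the 5 genes, all luteolin libraries lay above all control libraries. Expression differed by 2.08-fold for Cybb and 2.70-fold for Cyba. Of the 5 genes, only Ncf1 rose at an adjusted p under 0.05 in edgeR's quasi-likelihood test, where 1.34% of the 14963 genes tested were called higher and 0.187% lower. All 5 reached, here with edgeR p values, the threshold that the study used with DESeq2. It was an unadjusted p under 0.05 with a log2 fold change over 1, met upwards by 11.3% of tested genes and downwards by 1.52%. Without control replicate 1 or luteolin replicate 2, 3 of the 5 reached it. In those fits 1331 and 1139 genes of the whole table met it upwards, against 1687 with all 6 libraries. An unadjusted p under 0.05 alone was reached by all 5, and by 14% of tested genes upwards and 6.44% downwards. The separation of the 2 groups seen in all 5 genes was found upwards in 15.9% of tested genes and downwards in 12.8%. The median log2 fold change was 1.26 over the 5 genes and -0.01 over all genes tested. In whole tumours, more cells that express a gene and more RNA of that gene in each cell cannot be told apart.

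**Figure D1:**
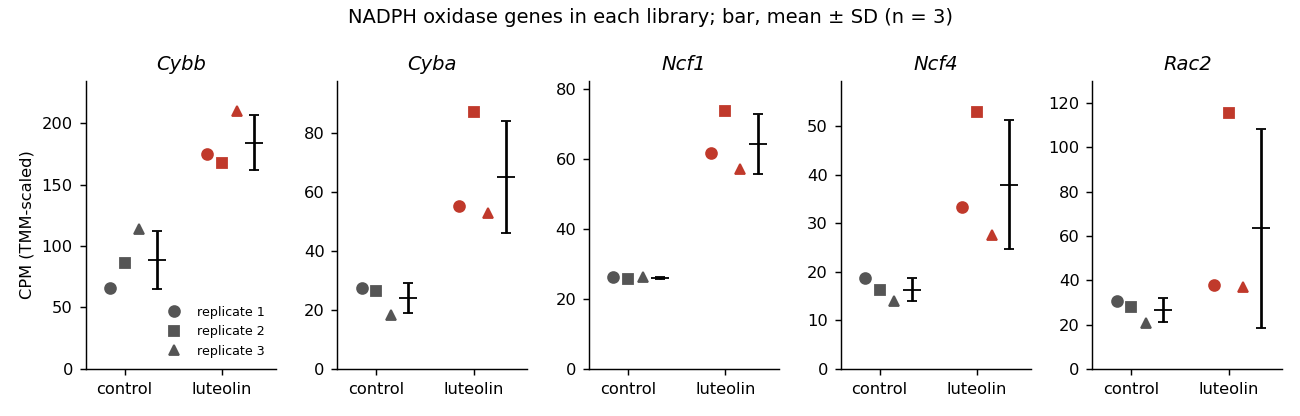
Expression of the 5 oxidase genes in each library, in TMM-scaled CPM, for the control (grey) and luteolin (red) groups. Symbols mark replicates 1 to 3 and bars mark the mean ± SD (n = 3). Every luteolin point lies above every control point, and Rac2 in luteolin replicate 2 lies at 116 CPM while the other two luteolin libraries lie at 36.9 and 38.0 CPM.

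Cybb, on chromosome X, encodes gp91phox (NOX2), the subunit that carries the haems and the NADPH site and so does the electron transfer. Cybb stood at 65.9, 86.3 and 113 CPM in the control libraries and at 175, 168 and 210 CPM in the luteolin libraries. Control replicate 3 was the highest control, and the lowest luteolin library was 1.48 times above it. The means were 88.5 ± 23.9 CPM (SD, n = 3) in the control group and 184 ± 22.3 CPM (SD, n = 3) in the luteolin group. The log2 fold change was 1.06 (SE 0.23) with an adjusted p = 0.0746 by edgeR. Without control replicate 1 the log2 fold change was 0.86.

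Cyba, on chromosome 8, encodes p22phox, the small membrane partner that stabilises gp91phox and holds the docking site for p47phox. Cyba was measured at 27.3, 26.6 and 18.4 CPM in the control libraries. The luteolin libraries gave 55.3, 87.0 and 53.0 CPM. Control replicate 3, the highest control for Cybb, was here the lowest, and luteolin replicate 2 was the highest of all. The means of 24.1 ± 4.96 CPM (SD, n = 3) and 65.1 ± 19.0 CPM (SD, n = 3) gave a log2 fold change of 1.43 (SE 0.27) with an adjusted p = 0.0554 by edgeR. On the opposite strand Cyba is overlapped by the predicted gene Gm20388, and whether counting used strand is not given in the sources used here.

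Ncf1, on chromosome 5, encodes p47phox, the organiser that is phosphorylated on activation and carries the cytosolic subunits to p22phox. Ncf1 lay at 26.2, 25.7 and 26.3 CPM under the vehicle and at 61.8, 73.7 and 57.1 CPM under luteolin. The control libraries were nearly equal, and the lowest luteolin library was 2.18 times above the highest control, the widest gap among the 5 genes. The means were 26.0 ± 0.279 CPM (SD, n = 3) and 64.2 ± 8.57 CPM (SD, n = 3). Ncf1 rose by a log2 fold change of 1.30 (SE 0.16), with an adjusted p = 0.0331 by edgeR. Without control replicate 1, 2 or 3 or luteolin replicate 1, Ncf1 had log2 fold changes of 1.27, 1.27, 1.30 and 1.33 with adjusted p of 0.143, 0.207, 0.145 and 0.124 by edgeR. In each of these 4 fits edgeR called 0 genes of the whole table at an adjusted p under 0.05, while at the study's threshold 1302 to 1710 genes were higher. It ranked 38 by p among the 14963 genes tested. With GC content and length fitted the log2 fold change of Ncf1 was 0.98, with an adjusted p = 0.0190 by edgeR. The transcription factor gene Gtf2ird2 overlaps Ncf1 on the opposite strand and stood at 15.1 ± 1.60 CPM (SD, n = 3) in the control group and 14.4 ± 1.39 CPM (SD, n = 3) in the luteolin group.

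Ncf4, on chromosome 15, encodes p40phox, which binds a phosphoinositide of the phagosome membrane. Ncf4 was at 18.7, 16.3 and 14.0 CPM in the control libraries and at 33.3, 52.9 and 27.5 CPM in the luteolin libraries. Luteolin replicate 2 was the highest and control replicate 3 the lowest, as for Cyba. The log2 fold change of Ncf4 was 1.22 (SE 0.28) with an adjusted p = 0.0862 by edgeR, from 16.3 ± 2.34 CPM (SD, n = 3) to 37.9 ± 13.3 CPM (SD, n = 3). Without luteolin replicate 2 it was 0.91.

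Rac2, also on chromosome 15, encodes the blood-cell Rac GTPase that activates the oxidase, and it is used by lymphocytes and mast cells as well as phagocytes. Rac2 stood at 30.9, 28.1 and 20.7 CPM in the control libraries and at 38.0, 116 and 36.9 CPM in the luteolin libraries. A single library, luteolin replicate 2, lay far above the other two luteolin libraries, the lower of which was only 1.20 times above the highest control. The means of 26.5 ± 5.28 CPM (SD, n = 3) and 63.5 ± 45.1 CPM (SD, n = 3) gave a log2 fold change of 1.26 (SE 0.47) and an adjusted p = 0.202 by edgeR. Without control replicate 1, 2 or 3, Rac2 had log2 fold changes of 1.32, 1.25 and 1.10, with unadjusted p of 0.0579, 0.0675 and 0.106 by edgeR. Without luteolin replicate 2 the log2 fold change of Rac2 was 0.51, with an unadjusted p = 0.0536 and an adjusted p = 0.312 by edgeR. In that library the summed level of the 8 measured T cell genes was 79.7 CPM, against 43.6 and 48.0 CPM in luteolin replicates 1 and 3 and 11.4 to 14.7 CPM in the control libraries. The keratinocyte genes given above and the B cell genes (25.4 CPM, against 6.79 and 9.98 CPM) and mast cell genes (96.1 CPM, against 63.1 and 29.6 CPM) were also highest in that library. Their part in the Rac2 value was not tested.

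The order of the 5 levels was compared per kilobase of exon, counting all annotated exons of a gene and without GC content fitted. Cyba was highest in the luteolin group at 62.7 ± 18.3 CPM per kb (SD, n = 3), followed by Cybb at 31.7 ± 3.84 CPM per kb (SD, n = 3). The levels of Rac2, Ncf4 and Ncf1 followed at 20.5 ± 14.5, 18.8 ± 6.59 and 17.5 ± 2.34 CPM per kb (SD, n = 3 each), and these 3 did not differ beyond their spread. The control group had the same order, with Cyba at 23.2 ± 4.77 and Cybb at 15.2 ± 4.11 CPM per kb (SD, n = 3 each). There the libraries of Cyba and Cybb overlapped, while in the luteolin group every Cyba level was above every Cybb level. The differences in base composition between libraries enter these levels, and their part in the overlap was not tested.

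Cybb differs from the other members in base composition, with 43.2% GC over its exons, where the median tested gene has 50.9%. Cyba has 58.8%, Rac2 56.5% and Ncf1 and Ncf4 54.4% each. With GC content and length fitted across all genes in each library, the log2 CPM values of Cybb were 6.55, 6.46 and 6.43 in the control libraries and 7.25, 7.66 and 7.50 in the luteolin libraries. On this scale Cyba lay at 4.75, 4.86 and 4.77 in the control group and at 5.79, 5.55 and 5.95 in the luteolin group. Control replicate 3 was then neither the highest control for Cybb nor the lowest for Cyba, and all 5 genes still separated the groups. The differences in log2 CPM were 0.99 for Cybb, 0.97 for Cyba, 0.98 for Ncf1, 0.80 for Ncf4 and 0.72 for Rac2. In edgeR with these terms, Cybb (adjusted p = 0.0199), Cyba (adjusted p = 0.0204), Ncf1 (adjusted p = 0.0190) and Ncf4 (adjusted p = 0.0309) passed and Rac2 (adjusted p = 0.101) did not. None of the 5 was then over a log2 fold change of 1, so none met the study's threshold. In the same fit 565 of the 14635 genes, 3.86%, were higher at an adjusted p under 0.05 and 353 lower, and 1370, 9.36%, were higher at the study's threshold.

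**Figure D2:**
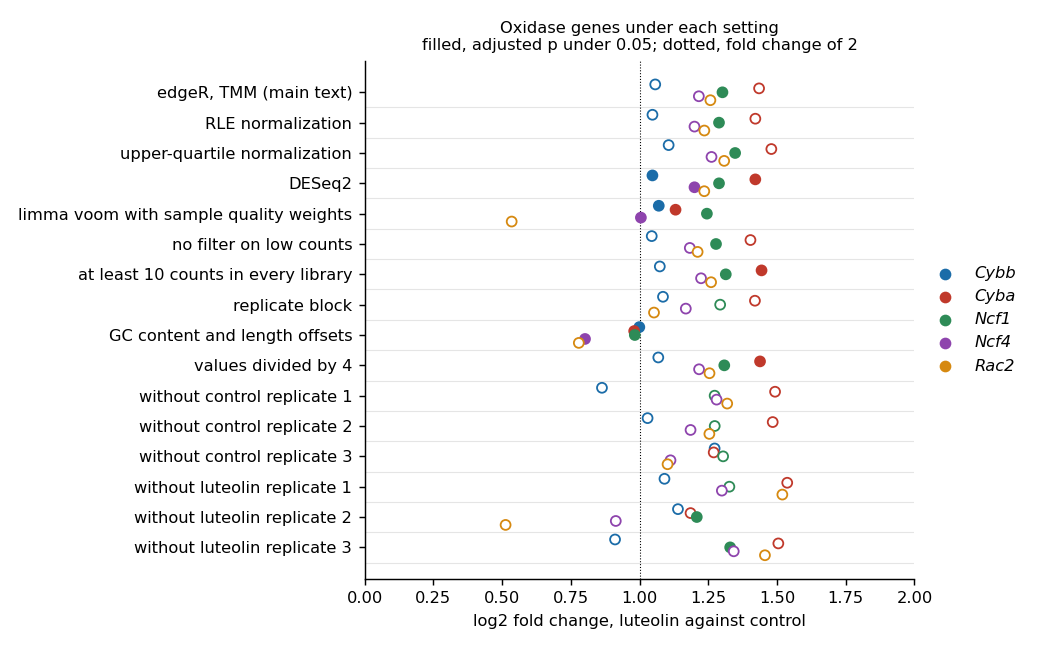
Log2 fold change of the 5 oxidase genes, luteolin against control, under each way of processing the counts. Filled points have an adjusted p under 0.05 and the dotted line marks a fold change of 2. Every point lies above 0, and Rac2 has the lowest values, 0.51 without luteolin replicate 2 and 0.53 with limma's voom.

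The start regions of Cybb, Cyba and Ncf1 are shown because these genes lay higher together and because phagocyte oxidase genes are known targets of PU.1 and IRF factors. RefSeq start regions were found for these 3 of the 5 genes and are given 5′ to 3′ from 250 bases before to 50 after the start in GRCm38.p6, at chrX:9469275-9469574, chr8:122432891-122433190 and chr5:134229576-134229875, all on the minus strand. Capitals mark matches to GAAANNGAAA, a spacing of IRF-type elements, on either strand.
Cybb: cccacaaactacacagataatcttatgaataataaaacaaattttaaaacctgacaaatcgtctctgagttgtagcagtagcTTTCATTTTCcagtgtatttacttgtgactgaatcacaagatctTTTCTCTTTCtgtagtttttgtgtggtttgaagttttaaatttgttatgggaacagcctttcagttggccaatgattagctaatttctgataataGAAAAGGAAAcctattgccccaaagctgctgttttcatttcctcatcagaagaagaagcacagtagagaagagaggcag
Cyba: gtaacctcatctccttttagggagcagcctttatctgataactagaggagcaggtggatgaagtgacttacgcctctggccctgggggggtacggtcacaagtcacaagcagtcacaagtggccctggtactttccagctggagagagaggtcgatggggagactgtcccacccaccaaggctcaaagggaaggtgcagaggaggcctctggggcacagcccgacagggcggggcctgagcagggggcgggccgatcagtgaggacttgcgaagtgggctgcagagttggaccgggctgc
Ncf1: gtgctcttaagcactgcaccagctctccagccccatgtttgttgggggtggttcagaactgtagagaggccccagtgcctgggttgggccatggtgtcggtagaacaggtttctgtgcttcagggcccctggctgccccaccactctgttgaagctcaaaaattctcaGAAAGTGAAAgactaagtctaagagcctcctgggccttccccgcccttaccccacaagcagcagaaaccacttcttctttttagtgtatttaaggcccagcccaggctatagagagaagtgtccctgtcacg
GAAANNGAAA was found on either strand in 3.44% of the 32851 start regions of this length. Cybb held 3 matches, beginning 168, 124 and 29 bases before the start, and Ncf1 held 1, beginning 82 bases before it. GAGGAA, the core letters of a PU.1 element, was found in 28.3% of start regions and, among the 3 genes, in Cybb alone, beginning at base 10 after the start on the other strand. Neither was found in the window of Cyba.

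The factors themselves were on a list of 10 transcription factor genes, of which 1 rose at an adjusted p under 0.05 and 4 met the study's threshold upwards (2 without luteolin replicate 2). Here and for the lists that follow, the shares over all tested genes were 1.34% higher at an adjusted p under 0.05 and 11.3% at the study's threshold. Every luteolin library lay above every control library for 15.9%. Spi1, which encodes PU.1, stood at 13.1 ± 2.66 and 41.8 ± 19.9 CPM (SD, n = 3 each), with a log2 fold change of 1.68 and an adjusted p = 0.0772 by edgeR. Irf8, the factor of monocyte and dendritic cell development, had a log2 fold change of 1.28. Irf1 and Nfkb1, more abundant in these tumours, had values of 0.27 and 0.20, and Irf1 turned to -0.042 with GC content and length fitted. The median over the 10 genes was 0.91.

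The other parts and regulators of the oxidase were described by 15 genes. Of these, 1 rose at an adjusted p under 0.05, 4 met the study's threshold upwards and 8 lay higher in every luteolin library, with a median log2 fold change of 0.28. Over all tested genes these shares were 1.34%, 11.3% and 15.9%. Without luteolin replicate 2, 2 of the 15 met the study's threshold. With GC content and length fitted, 4 of the 15 rose at an adjusted p under 0.05, and the median was 0.02. Cybc1 encodes EROS, a chaperone of the gp91phox and p22phox pair, and was the single partner lower in every luteolin library, at 109 ± 7.45 against 89.2 ± 5.38 CPM (SD, n = 3 each). The log2 fold change of Cybc1 was -0.29 with an adjusted p = 0.288 by edgeR. Rac1, the GTPase found in nearly all cells, was at 224 ± 4.99 and 256 ± 42.3 CPM (SD, n = 3 each), with overlapping libraries and a log2 fold change of 0.19 that turned to -0.033 with GC content and length fitted. Vav1, which loads Rac with GTP in blood cells, rose from 17.0 ± 0.964 to 50.6 ± 16.7 CPM (SD, n = 3 each), at a log2 fold change of 1.57 with an adjusted p = 0.0437 by edgeR. The call of Vav1 was lost without any 1 control library or without luteolin replicate 1, when no gene of the table passed, at log2 fold changes from 1.49 to 1.68 with adjusted p from 0.126 to 0.214 by edgeR. Dock2, another Rac exchange factor of blood cells, had a log2 fold change of 0.99 (adjusted p = 0.0720 by edgeR). The value for Arhgdib, the blood-cell inhibitor that keeps Rac in the cytosol, was 1.34 (adjusted p = 0.0957 by edgeR). Prkcd, a kinase that phosphorylates p47phox, was at a log2 fold change of 0.18 that turned to -0.084 with GC content and length fitted, and Prdx6 was at 0.28.

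**Figure D3:**
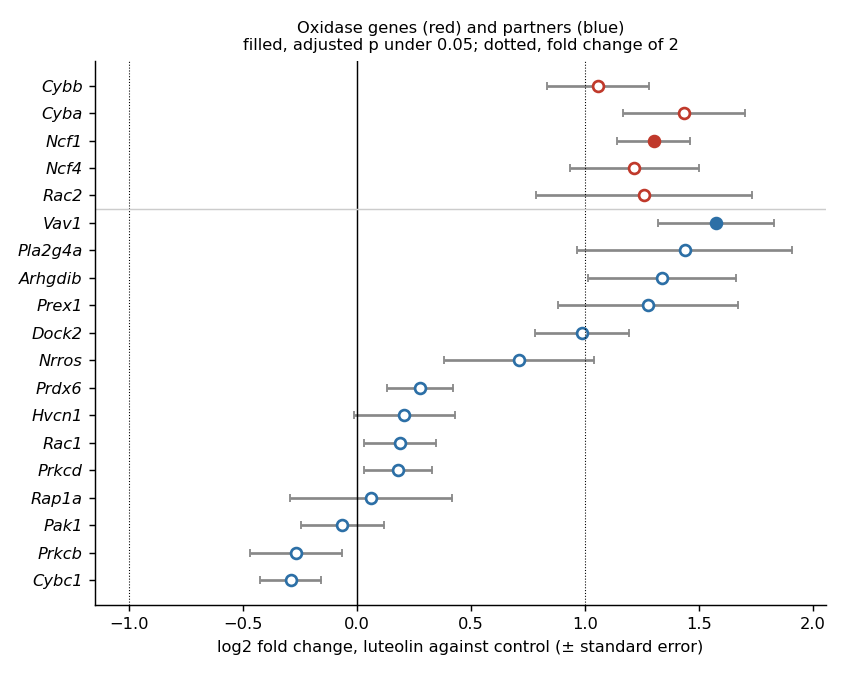
Log2 fold change, luteolin against control, of the 5 oxidase genes (red) and 14 of the 15 partners and regulators (blue), with bars of ± 1 standard error. Filled points, Ncf1 and Vav1, have an adjusted p under 0.05 and dotted lines mark a fold change of 2. The oxidase genes lie between 1.06 and 1.43 and Cybc1 lies at -0.29.

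The receptors that trigger the oxidase were described by 14 genes, with a median log2 fold change of 1.13. Of these, 3 rose at an adjusted p under 0.05, 8 met the study's threshold upwards (6 without luteolin replicate 2) and 10 were higher in every luteolin library. Over all tested genes these shares were 1.34%, 11.3% and 15.9% with all 6 libraries. Fcgr4, an activating receptor for IgG, rose from 33.2 ± 2.62 to 142 ± 63.8 CPM (SD, n = 3 each), at a log2 fold change of 2.09 with an adjusted p = 0.0393 by edgeR. Csf2rb, the shared chain of the receptors for GM-CSF, IL-3 and IL-5, rose from 54.2 ± 5.52 to 143 ± 25.7 CPM (SD, n = 3 each), at a log2 fold change of 1.40 with an adjusted p = 0.0331 by edgeR. Ptafr, the receptor of platelet-activating factor, rose with a log2 fold change of 1.26 (adjusted p = 0.0493 by edgeR). Leaving out the low-count filter gave Ptafr an adjusted p = 0.0502 by edgeR, and the replicate number as a block gave 0.118. Each of these 3 calls was lost without any 1 control library or without luteolin replicate 1, when no gene of the table passed, at log2 fold changes from 1.99 to 2.24 for Fcgr4, 1.33 to 1.46 for Csf2rb and 1.21 to 1.29 for Ptafr, with adjusted p from 0.124 to 0.236 by edgeR. Fcgr2b, the inhibitory IgG receptor, and Fcgr3, an activating one, had log2 fold changes of 0.76 and 0.73 (adjusted p = 0.0570 and 0.0635 by edgeR). Itgb2, the beta chain of the leukocyte integrins and the most abundant of the 14, was at 339 ± 14.0 and 329 ± 36.0 CPM (SD, n = 3 each), at a log2 fold change of -0.04.

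The kinases and lipases between these receptors and the oxidase were described by 10 genes, with a median log2 fold change of 1.06. Of these, 1 rose at an adjusted p under 0.05, 5 met the study's threshold upwards and 7 were higher in every luteolin library. Over all tested genes these shares were 1.34%, 11.3% and 15.9%. Syk, the kinase recruited by activating Fc receptors, rose from 37.0 ± 4.40 to 110 ± 34.0 CPM (SD, n = 3 each), at a log2 fold change of 1.57 with an adjusted p = 0.0403 by edgeR. Without luteolin replicate 2, 3 of the 10 rose at an adjusted p under 0.05 and 4 met the study's threshold. The call of Syk was lost without any 1 control library or without luteolin replicate 1, when no gene of the table passed, at log2 fold changes from 1.47 to 1.67 with adjusted p from 0.126 to 0.214 by edgeR. Lyn, a kinase of the Src family, had a log2 fold change of 0.99 (adjusted p = 0.0789 by edgeR). Mapk14, which encodes p38α and is found in most cells, was lower in every luteolin library, with a log2 fold change of -0.38 and an adjusted p = 0.171 by edgeR.

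The other NADPH oxidases and their subunits were described by 10 genes. Of these, 5 had enough counts to be tested, 0 passed at an adjusted p under 0.05 in edgeR, and 2 met the study's threshold upwards (1 without luteolin replicate 2). At an adjusted p under 0.05, DESeq2 and limma's voom each called 2 genes of this list, and at an unadjusted p under 0.05 edgeR called 2. Nox4, an oxidase of stromal and kidney cells, had 0, 0 and 26 counts in the control libraries and 36, 6 and 0 counts in the luteolin libraries. Nox3 and Noxa1 had 0 counts in every library. Duox1 and its maturation factor gene Duoxa1, used by epithelia, had log2 fold changes of 2.37 and 2.01 (adjusted p = 0.174 and 0.156 by edgeR). These were 1.26 and 1.43 without luteolin replicate 2, the library with the highest level of keratinocyte genes. Rac3, a Rac GTPase with 720 or more counts in every library, and Noxo1, an organiser subunit with 140 or more, had log2 fold changes of -0.42 and -0.07.

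Enzymes that make or remove superoxide, peroxide and nitric oxide were described by 14 genes, with a median log2 fold change of 0.11 that turned to -0.095 with GC content and length fitted. Of these, 1 rose at an adjusted p under 0.05 and 3 met the study's threshold upwards (2 without luteolin replicate 2). Nos2, the inducible nitric oxide synthase whose product reacts with superoxide to form peroxynitrite, rose from 9.52 ± 4.52 to 122 ± 35.7 CPM (SD, n = 3 each), at a log2 fold change of 3.68 with an adjusted p = 0.0331 by edgeR. The call of Nos2 was lost without any 1 control library or without luteolin replicate 1, when no gene of the table passed, at log2 fold changes from 3.37 to 4.09 with adjusted p from 0.124 to 0.207 by edgeR. Sod3, the extracellular superoxide dismutase, and Cat, which encodes catalase, had log2 fold changes of 2.26 and 1.36 (adjusted p = 0.101 and 0.226 by edgeR), which were 1.47 and 0.46 without luteolin replicate 2. The abundant peroxide-removing enzymes of most cells, Gpx1, Prdx1 and Prdx2, had log2 fold changes of 0.08, -0.04 and -0.37, and their libraries overlapped between the groups. The sign of Gpx1 turned with voom and with GC content and length fitted, and that of Prdx1 with upper-quartile scaling and voom. Both also turned when single libraries were left out.

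**Figure D4:**
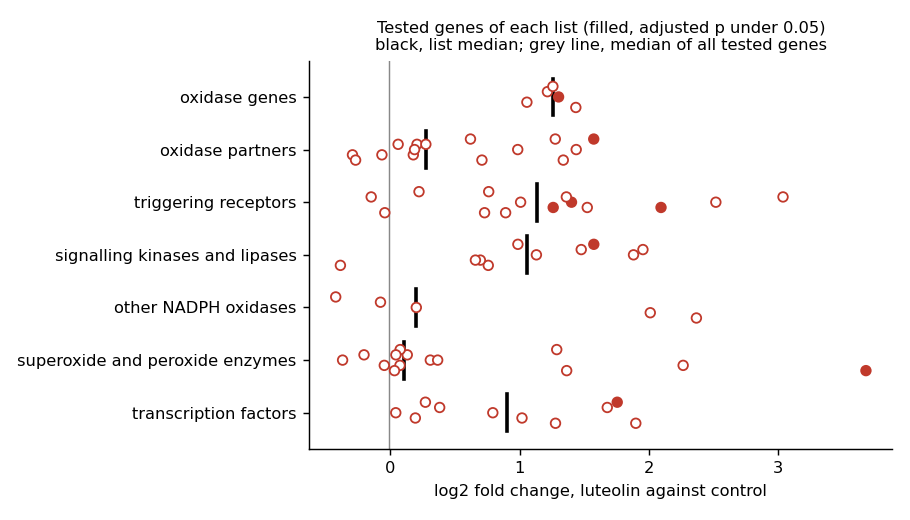
Log2 fold change, luteolin against control, of each tested gene in 7 lists around the phagocyte oxidase. Filled points have an adjusted p under 0.05, black bars mark list medians and the grey line marks the median of all tested genes, -0.01. The medians are 1.26 for the oxidase genes, 1.13 for the triggering receptors and 0.28 for the partners.

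Markers of the cells that use the oxidase were counted in the same way. Of 12 macrophage and monocyte genes, 1 rose at an adjusted p under 0.05, 3 met the study's threshold upwards and 7 were higher in every luteolin library, with a median log2 fold change of 0.82. Over all tested genes these shares were 1.34%, 11.3% and 15.9%. With GC content and length fitted, 1 of the 12 met the study's threshold and the median was 0.50. Their summed level was 2269, 1955 and 2182 CPM in the control libraries and 2468, 3675 and 3360 CPM in the luteolin libraries. The most abundant was Lyz2, a lysozyme of myeloid cells, at a log2 fold change of 0.23 (-0.092 with GC content and length fitted and 0.034 without luteolin replicate 3), followed by the complement genes C1qa at 0.80 and C1qc at 0.91. The 12 neutrophil genes summed to 46.5, 52.8 and 50.7 CPM in the control libraries and 230, 230 and 141 CPM in the luteolin libraries, and 2 of the 9 tested rose at an adjusted p under 0.05, against 4 without luteolin replicate 2. The most abundant of them was Csf3r, the G-CSF receptor, with a log2 fold change of 2.25, and Mmp9, a secreted protease, had 0.80. S100a9, a calcium-binding protein of neutrophils and monocytes, rose from 1.80 ± 0.692 to 46.7 ± 28.9 CPM (SD, n = 3 each), at a log2 fold change of 4.70 with an adjusted p = 0.0331 by edgeR. The call of S100a9 was lost without any 1 control library or without luteolin replicate 1, when no gene of the table passed, at log2 fold changes from 4.06 to 5.06 with adjusted p from 0.117 to 0.207 by edgeR. S100a8, its binding partner, was at means of 0.358 and 7.78 CPM, and Cxcr2, a chemokine receptor of neutrophils, at 0.802 and 15.5 CPM. The granule protein genes Ltf, Camp and Ngp had 0 counts in the control libraries, and in the luteolin libraries Ltf had 22, 16 and 292 counts, Camp 0, 7 and 100 and Ngp 4, 0 and 544. Ly6g was at means of 0.309 and 0.208 CPM and the elastase gene Elane at 0.0191 and 0.115 CPM.

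The enzyme's genes were then set against the mean log2 CPM of the 12 macrophage and monocyte genes, a mean that was itself 0.83 higher in the luteolin group. Relative to that mean, Ncf1 lay at -1.35, -1.47 and -1.57 in the control libraries and at -0.88, -0.90 and -1.21 in the luteolin libraries. On this scale, before GC content and length were fitted, Ncf1 was the single member whose groups did not overlap, with a difference of 0.47 in log2 CPM and p = 0.1 by a two-sided exact permutation test, the smallest p that 3 libraries against 3 can give. The differences were 0.26 for Cybb, 0.59 for Cyba, 0.34 for Ncf4 and 0.23 for Rac2, with exact permutation p of 0.2, 0.2, 0.4 and 0.8. With GC content and length fitted, the groups of Cybb, Cyba and Ncf1 did not overlap, at differences of 0.44, 0.42 and 0.43, each with p = 0.1 by exact permutation, and Ncf4 and Rac2 were at 0.25 and 0.17. Against the 8 pan-leukocyte genes, Cyba and Ncf1 did not overlap, at 0.56 and 0.43. Adjusted over the 5 genes as first given, these exact p values ran from 0.333 to 0.8. Set against the mean of the 9 tested neutrophil genes instead, the differences changed sign for all 5 genes and ran from -1.29 to -0.92. The groups of Cybb and Ncf1 did not overlap (p = 0.1 each by exact permutation). Each neutrophil gene counted equally in that mean, including Ltf with 0 and S100a8 with 15 to 35 counts in the control libraries. That mean was formed with a prior count of 2 only. Relative to the macrophage and monocyte genes, Rac2 also changed sign without luteolin replicate 2, to -0.26. The share of each cell type in these differences was not tested.

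**Figure D5:**
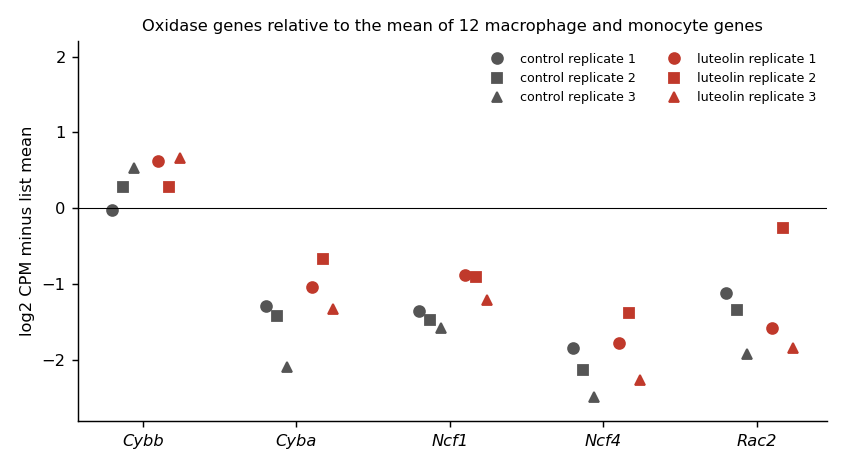
Log2 CPM of each oxidase gene minus the mean log2 CPM of 12 macrophage and monocyte genes, in each library. Control libraries are grey, luteolin libraries are red and symbols mark replicates 1 to 3. On this scale, without GC content and length fitted, the Ncf1 groups alone are separate, at -1.57 to -1.35 in the control group and -1.21 to -0.88 in the luteolin group.

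The balance between the subunits was compared as the log2 ratio of each of the 10 pairs. Before GC content and length were fitted, the pair of Cyba and Ncf4 alone had groups that did not overlap. The difference was 0.25 in log2 ratio, with p = 0.1 by exact permutation and an adjusted p of 0.889 over the 10 pairs. No pair had a smaller adjusted value. With GC content and length fitted, the groups of Cyba to Ncf4 overlapped, since luteolin replicate 2 fell among the control libraries. Across the 6 libraries, which include the group difference, Pearson's r between members ran from 0.46 for Cybb with Rac2 to 0.98 for Cyba with Ncf4. The libraries share the GC differences given above, and Cybb is the member of low GC content. Rac2 was far higher in luteolin replicate 2 than in the other libraries. These correlations were not repeated with GC content fitted, and the part of either feature in them was not tested.

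Among the other leukocyte and stromal lists, all 8 measured T cell genes met the study's threshold upwards, and 1 rose at an adjusted p under 0.05 in edgeR, against 8 in DESeq2 and 8 in voom. The most abundant was Cd4, at a log2 fold change of 1.63. Among 8 genes shared by leukocytes, 0 passed at an adjusted p under 0.05 in edgeR (5 at an unadjusted p under 0.05) and 4 met the study's threshold upwards, against 1 without luteolin replicate 2. DESeq2 called 4 of these genes and voom 6 at an adjusted p under 0.05. Lcp1, which encodes the actin-bundling protein plastin and was the most abundant of them, was lower in every luteolin library at a log2 fold change of -0.26. Over all tested genes 11.3% met the study's threshold upwards and 1.34% rose at an adjusted p under 0.05 in edgeR. The study's threshold was met upwards by 6 of 8 dendritic cell genes, 6 of 7 mast cell genes, 4 of 5 tested NK cell genes, 2 of 6 B cell genes and 0 of 3 tested eosinophil genes. It was also met by 5 of 7 fibroblast genes, 3 of 6 endothelial genes, 6 of 7 tested keratinocyte genes and 1 of 7 tested hepatocyte and hepatoma genes. Without luteolin replicate 2 it was met by 1 endothelial and 1 B cell gene, and the other counts in these lists moved by at most 1. The most abundant genes of these lists were Itgax (log2 fold change 1.15), Mcpt4 (3.06), Eomes (-0.86), Cd79b (2.17), Siglecf (0.07), Col3a1 (1.23), Pecam1 (1.05), Krt14 and Trf (-0.86). In edgeR with all 6 libraries no list held a gene lower at the study's threshold or at an adjusted p under 0.05, while without luteolin replicate 3 Trf was lower at both, with a log2 fold change of -1.42 and an adjusted p = 0.0381. Without luteolin replicate 2 Cd79b was at 1.24. In DESeq2 1 NK cell gene was lower at an adjusted p under 0.05, and in voom 1 NK cell gene, 1 kinase or lipase gene, 1 superoxide or peroxide enzyme gene and 2 hepatocyte and hepatoma genes were. In both tools the NK cell gene was Eomes, at means of 82.0 CPM in the control group and 45.2 CPM in the luteolin group. The 4 tested NK cell genes with positive log2 fold changes were at control means of 2.34 CPM or less. The part of these lists in the values of the oxidase genes was not tested.

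The genes whose pattern over the 6 libraries was most like the mean of the 5 members, each standardized, had Pearson's r from 0.995 to 0.999. They were Ubb, Thy1, Ppm1h, Lipg, Slc11a1, Dlg2, H2-Q4, Sash1, Sema4d and Cxcl16. Ubb encodes ubiquitin and was at 150, 148 and 146 CPM in the control libraries and at 210, 259 and 213 CPM in the luteolin libraries. Slc11a1, a metal transporter of the phagosome, was at 18.5, 17.6 and 15.6 CPM in the control group and at 51.7, 104 and 45.8 CPM in the luteolin group. In both, luteolin replicate 2 was the highest library. An r over 0.9 was found for 1124 of the 14958 other genes tested, 7.51%, so this likeness is common in these libraries.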

How the data were processed

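RNA-seq libraries of 6 tumour samples were analysed, 3 control and 3 luteolin, and 0 columns were left out. The table the authors deposited holds 1 whole number for each gene symbol and library, without scaling, and these were taken as estimated counts. The submitters' processing notes name bcl2fastq 2.0, HISAT2, StringTie and DESeq2, and both a rat (rn6) and a mouse (mm39) build, so no positions were taken from them. The paper and the labels name different RNA and library kits, and the counting strand is not given in the sources used here. Reads were 150 bases long, and 4 mice per group are described.

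Counts were compared in R 4.3.3 with edgeR 4.0.16 (TMM, filterByExpr, quasi-likelihood test without covariates) on 14963 genes, and two-sided p values were adjusted over all of them by the Benjamini-Hochberg method. The log2 CPM values have a prior count of 2. Alternatives were DESeq2 1.42.0, voom of limma 3.58.1 with sample quality weights, RLE and upper-quartile normalization, no low-count filter, at least 10 counts in every library, values divided by 4, the replicate number as a block, GC and length offsets (natural splines with 4 and 3 degrees of freedom), and each library left out. For values relative to a list and for pair ratios, a prior count of 0.5, the pan-leukocyte or neutrophil list as reference and removal of the fitted GC and length trend were also tried. The counts of lists without luteolin replicate 2, the counts of lists with GC offsets and the GC-adjusted ratios were chosen after seeing the data. GC content, exon length, chromosome and overlapping genes are from GENCODE M21. The steps were tested on simulated data.

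The 5 genes and all lists were chosen with earlier results of these data known. Genes named are the 5 members, fixed partners, the 3 most abundant and the 3 of smallest p in each pathway list, the most abundant of each cell type list (3 for the macrophage and neutrophil lists) and the 10 most like the members. S100a8, Cxcr2, Ltf, Camp, Ngp, Ly6g, Elane, Hnf4a, Nox3, Noxa1, Gm20388 and Gtf2ird2 were added after their values or positions were seen. Some genes that the rule selects are not reported here. Intervals from counting alone are not given, since 1 unit need not be 1 read pair.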

Additional observations from a re-analysis of the deposited data

How the results depend on the processing

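The log2 fold change of each of the 5 oxidase genes was positive under every alternative run, but how many passed depended on the tool. At an adjusted p under 0.05, 1 oxidase gene was called in the edgeR fit given above, with 200 genes higher and 28 lower in the whole table. DESeq2 called 4, with 1543 higher and 415 lower, and gave log2 fold changes of 1.05 for Cybb, 1.42 for Cyba and 1.20 for Ncf4. The voom fit called 4, with 1886 higher and 1311 lower, and gave 1.07, 1.13 and 1.00 for the same genes. Offsets for GC content and length led to 4 calls, with 565 higher and 353 lower, and to 1.00, 0.98 and 0.80. A minimum of 10 counts in every library gave 2 calls, with 345 higher, 47 lower and Cyba at 1.44, and values divided by 4 gave 2 calls, with 327 higher, 46 lower and Cyba at 1.44. At the study's threshold, 227 genes were lower in the edgeR fit given above, 498 with voom and 474 with the offsets, and with the offsets 0 of the 5 oxidase genes met it, against 4 at an adjusted p. Without the low-count filter, or with RLE or upper-quartile scaling, the calls of the 5 genes were those given above. Of the lists, DESeq2 and voom called 6 and 6 partners (1 in edgeR), 10 and 11 triggering receptors (3), 6 and 7 kinases and lipases (1), 4 and 4 transcription factors (1), 2 and 3 superoxide and peroxide enzymes (1), 5 and 6 macrophage genes (1) and 6 and 7 neutrophil genes (2) higher.

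The replicate numbers did not pair the libraries, since the deviations of libraries with the same number correlated at -0.20, -0.09 and 0.06. With the number as a block 34 genes were higher and 1 lower, and 0 of the 5 oxidase genes were called, with Ncf1 at 1.29 and an adjusted p = 0.0825 by edgeR, Prdx1 at 0.37 and Siglecf at -0.10. The calls of Vav1, Fcgr4, Csf2rb, Ptafr, Syk, Nos2 and S100a9 were also lost under this block, with adjusted p from 0.0523 to 0.118 by edgeR.

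When 1 library was left out, Ncf1 ranged from 1.21 to 1.33. The calls at an adjusted p ran from 0 to 1 of the oxidase genes, from 0 to 276 genes higher and from 0 to 36 lower, and were 0 without any 1 control library or without luteolin replicate 1. In those 4 fits the same 14 other genes selected for naming lost their calls. At the study's threshold 3 to 5 oxidase genes, 1139 to 2104 genes higher and 140 to 305 lower were counted. Rac2 relative to the macrophage genes ran from -0.26 to 0.54. The sign also depended on 1 library for Gpx1 (-0.17 to 0.18), Itgb2 (-0.10 to 0.040), Noxo1 (-0.19 to 0.037), Prdx1 (-0.55 to 0.77) and Siglecf (-0.66 to 0.43). Among the log2 ratios it did so for Cybb to Cyba (-0.63 to 0.047), Cybb to Ncf4 (-0.38 to 0.25), Cybb to Rac2 (-0.35 to 0.63), Cyba to Ncf1 (-0.064 to 0.22), Ncf1 to Rac2 (-0.0023 to 0.67) and Ncf4 to Rac2 (-0.084 to 0.38).

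With the neutrophil list as reference, which holds genes near 0 in the control libraries, the differences were -1.26 for Cybb, -0.92 for Cyba, -1.05 for Ncf1, -1.17 for Ncf4 and -1.29 for Rac2. With GC content and length fitted, the sign turned for Gpx1 (-0.36), Irf1 (-0.042), Lyz2 (-0.092), Prkcd (-0.084), Rac1 (-0.033) and Siglecf (-0.11), and for the log2 ratios of Cybb to Cyba (0.019), Cybb to Ncf1 (0.012), Cybb to Ncf4 (0.19) and Cyba to Ncf1 (-0.0069). Upper-quartile normalization turned Itgb2 (0.0044) and Prdx1 (0.013), and voom turned Gpx1 (-0.20) and Prdx1 (0.10). The causes were not tested. Each oxidase gene had 902 or more counts in each library, but the number of read pairs behind a count is unknown, so the part of depth in the error is not given.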
